A study of Mus musculus with 3 samples.

Results

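The genes of the epidermal differentiation complex, a cluster on mouse chromosome 3, went separate ways by subfamily in skin wounds between day 10 and day 14. Members were taken by symbol. They were all genes beginning with Lce or Sprr, the genes named S100a plus a number, and Flg, Flg2, Hrnr, Rptn, Tchh, Tchhl1, Lor, Ivl, Crct1, Pglyrp3 and Pglyrp4. Of 19938 genes measured by a probe set of their own, 55 met this rule, and the gene table of assembly GRCm38.p6 places all 55 on chromosome 3. They comprised 13 Lce1 genes, 5 Lce3 genes and the single gene Lce6a, 2 Sprr1 genes, 9 Sprr2 genes, Sprr3 and Sprr4, 13 S100a genes, 5 fused-type S100 genes, and 5 single-copy genes. That table lists 62 genes that meet the rule. Flg, Lce1m and Sprr2c-ps had no probe set under their own symbol and were not analysed here, whereas Lce3d, Sprr2a1, Sprr2a2 and Sprr2a3 were covered by probe sets that list several symbols.

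The animals were C57Bl/6 mice, an inbred strain, aged 6 weeks, each with an excision of 1.5 cm2 through epidermis and dermis on the back. Wounds were sampled on day 10, day 12 or day 14, tissue of 3 mice was pooled for each day, and each pool went onto 1 array. No unwounded skin is among the samples used here, and dissection was meant to leave out skin and follicles beside the wound. With 1 array per day there is no replicate error, no test and no p-value, and every difference compares single pools.

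The complex supplies much of the cornified envelope, the crosslinked protein shell that replaces the plasma membrane of a keratinocyte as it becomes a dead scale of the stratum corneum. Involucrin, loricrin, the small proline-rich (Sprr) proteins and the late cornified envelope (Lce) proteins are joined to one another by transglutaminases. The fused-type S100 proteins, such as filaggrin and hornerin, join a calcium-binding S100 domain to long repeats and help to bundle keratin filaments or to fill the envelope. The S100a genes encode small calcium-binding proteins used in many cell types. In skin, Lce1 genes and loricrin belong to normal terminal differentiation, while human LCE3 genes and several Sprr genes are known for expression in injured or inflamed epidermis.

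Values are log2 expression as deposited, and a difference of 1 is a 2-fold difference. A yardstick of technical spread came from 777 genes with exactly 2 probe sets, as the distance of a probe set's difference from the mean of the pair. Its 95th percentile was 0.19 for day 12 against day 10, 0.14 for day 14 against day 12 and 0.24 for day 14 against day 10. Differences larger than this are called beyond the spread between probe sets, which covers neither animals nor pools. The distance is smaller than the gap between the 2 probe sets, and every member except S100a11 has 1 probe set. It is therefore a lenient limit for members, and differences just above it are uncertain. Of the members, 48 reached the median of the highest value of all genes, 8.36, on at least 1 day. Those that did not were Lce3b, Sprr2k, Sprr3, Tchhl1, S100a2, S100a3 and S100a5. Equal values on different arrays were frequent, with 23.1% of all probe sets equal on all 3, so a difference of 0.00 is not a precise measure of no difference. Signals of different probe sets are not comparable as transcript amounts. In pooled tissue, more cells of a type and more RNA per cell cannot be told apart.

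The sequences upstream of the members differed between the subfamilies. Some of the windows shown were picked by the values of their genes on these arrays. RefSeq promoter windows of GRCm38.p6 were found for 46 of the 55 members, and the 250 bases before the annotated start were searched on both strands for 3 motifs, each also as its reverse complement. The AP-1 site was spelled TGAGTCA. The TATA box was spelled TATAAA, and the box bound by Krüppel-like factors was spelled CACCC. An octamer, spelled ATTTGCAT, was added after the windows had been read. So was an A-rich motif, spelled AATAAAA. Hits of different motifs overlapped in 1 of the 46 members. The following Sprr2 windows of 220 bases, ending at the base before the start, are shown because they share 3 motifs at nearly fixed distances, which are in capitals.

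Sprr2e, chr3:92351923-92352142, plus strand: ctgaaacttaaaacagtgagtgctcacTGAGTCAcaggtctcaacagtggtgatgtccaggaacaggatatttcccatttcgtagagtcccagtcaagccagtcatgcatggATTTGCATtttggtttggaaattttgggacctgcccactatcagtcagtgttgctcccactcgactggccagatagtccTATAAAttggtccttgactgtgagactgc
Sprr2f, chr3:92364967-92365186, plus strand: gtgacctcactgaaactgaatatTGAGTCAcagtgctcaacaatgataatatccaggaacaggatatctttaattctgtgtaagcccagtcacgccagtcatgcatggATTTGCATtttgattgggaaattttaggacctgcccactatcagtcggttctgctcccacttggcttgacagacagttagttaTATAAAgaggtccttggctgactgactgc
Sprr2h, chr3:92385465-92385684, plus strand: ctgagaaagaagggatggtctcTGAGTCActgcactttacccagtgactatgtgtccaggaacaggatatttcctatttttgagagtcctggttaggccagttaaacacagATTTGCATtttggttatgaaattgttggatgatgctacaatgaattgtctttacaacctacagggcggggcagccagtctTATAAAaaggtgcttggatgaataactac

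All 7 Sprr2 genes with a window held the AP-1 site, the octamer and the TATA box. Among all 27025 genes with a window these were held by 5.16%, 1.81% and 14.3%. The TATA box began 29 bases before the start in all 7, the octamer 108 to 112 bases before it, and the AP-1 sites 182 to 198 bases before it. These genes are copies of one another, and the identity of their 250 bases had a median of 65.8% over 21 pairs, reaching 89.3% for Sprr2d and Sprr2e, so the shared motifs are not independent observations.

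The Lce1 and Lce3 windows are shown for contrast, since these neighbouring subfamilies moved in opposite directions between day 10 and day 14. Capitals mark the A-rich motif, which the Lce3e window lacks in this exact spelling.

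Lce1b, chr3:92656927-92657146, minus strand: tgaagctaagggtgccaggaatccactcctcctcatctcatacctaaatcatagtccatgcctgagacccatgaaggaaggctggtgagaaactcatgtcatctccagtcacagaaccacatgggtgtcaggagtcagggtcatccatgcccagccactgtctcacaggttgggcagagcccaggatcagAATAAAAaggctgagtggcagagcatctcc
Lce1i, chr3:92778900-92779119, minus strand: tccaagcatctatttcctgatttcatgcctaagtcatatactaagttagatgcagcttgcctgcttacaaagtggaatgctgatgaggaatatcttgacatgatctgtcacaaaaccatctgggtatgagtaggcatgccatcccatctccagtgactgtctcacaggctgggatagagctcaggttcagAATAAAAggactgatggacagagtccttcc
Lce3a, chr3:92926231-92926450, minus strand: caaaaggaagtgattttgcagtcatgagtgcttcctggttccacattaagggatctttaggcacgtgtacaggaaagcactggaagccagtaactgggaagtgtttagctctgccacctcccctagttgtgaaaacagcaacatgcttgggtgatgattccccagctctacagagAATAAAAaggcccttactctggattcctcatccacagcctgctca
Lce3e, chr3:92966841-92967060, plus strand: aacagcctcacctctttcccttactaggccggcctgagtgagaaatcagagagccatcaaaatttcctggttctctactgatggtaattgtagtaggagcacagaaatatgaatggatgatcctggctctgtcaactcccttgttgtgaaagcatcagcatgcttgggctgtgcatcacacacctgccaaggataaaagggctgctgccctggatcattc

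None of the 12 Lce1 and none of the 5 Lce3 windows held the AP-1 site or the octamer. The A-rich motif was present in 9 of 12 Lce1 windows, beginning 30 bases before the start in 8 of them and 32 in the other, against 8.93% of all genes. Lce1d held the TATA box at 30 bases. In Lce3, 2 of 5 windows held the A-rich motif, at 45 bases in Lce3a and at 208 bases in Lce3f. The windows of Lce3b, Lce3c, Lce3e and Lce3f hold gataaaa near the start, which differs from the motif in its first letter only. The counts of Lce1 and Lce3 therefore depend on the exact spelling, which was chosen after reading the windows. Identity had a median of 65.2% over 66 pairs of Lce1 genes, 58.5% over 10 pairs of Lce3 genes and 50.7% over 880 pairs from different subfamilies. The CACCC box occurred in 5 of 12 Lce1, 2 of 5 Lce3 and 2 of 7 Sprr2 windows, against 54.5% of all genes.

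Lor, Ivl and Flg2, envelope genes outside these families are shown because they were higher on day 14 while their upstream sequences differ. Capitals mark the AP-1 site and the TATA box.

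Lor, chr3:92083143-92083362, minus strand: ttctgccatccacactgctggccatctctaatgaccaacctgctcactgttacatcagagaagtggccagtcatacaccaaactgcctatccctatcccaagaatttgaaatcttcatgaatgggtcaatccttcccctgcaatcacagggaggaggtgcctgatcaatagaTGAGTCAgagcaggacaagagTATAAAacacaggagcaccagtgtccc
Ivl, chr3:92573736-92573955, minus strand: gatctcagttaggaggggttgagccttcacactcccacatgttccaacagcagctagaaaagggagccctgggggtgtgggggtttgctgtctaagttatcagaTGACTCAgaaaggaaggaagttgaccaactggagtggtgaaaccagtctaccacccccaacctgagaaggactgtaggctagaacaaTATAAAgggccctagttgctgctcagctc
Flg2, chr3:93197053-93197272, plus strand: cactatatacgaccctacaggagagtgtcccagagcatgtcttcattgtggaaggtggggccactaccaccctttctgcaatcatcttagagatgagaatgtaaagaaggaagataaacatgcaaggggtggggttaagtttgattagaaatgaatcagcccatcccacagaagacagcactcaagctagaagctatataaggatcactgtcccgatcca

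The AP-1 site began 48 bases before the start of Lor and 116 bases before that of Ivl, with TATA boxes at 27 and 29 bases. The Flg2 window of 220 bases held none of the motifs in capitals in their exact spelling. It holds tataag near the start, which differs from the TATA box in its last letter only. A match is a description of letters and not of a bound factor.

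**Figure D1:**
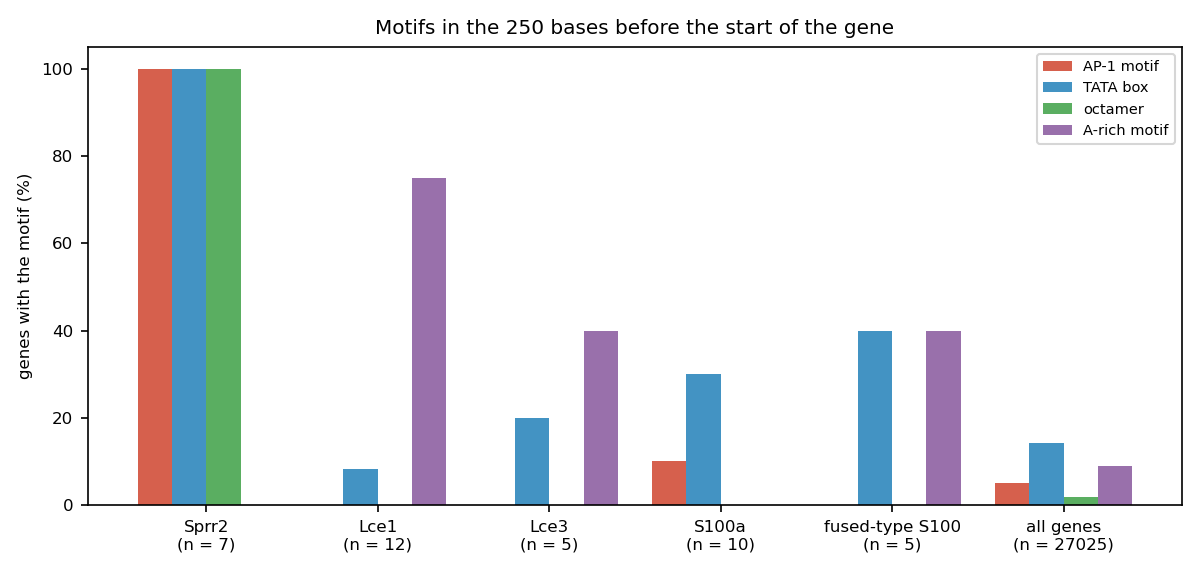
Share of genes (vertical axis, percent) whose 250 bases before the start hold each motif, for 5 subfamilies and for all genes with a window; each bar is a motif. All 7 Sprr2 genes hold the AP-1 site, the TATA box and the octamer, and 9 of 12 Lce1 genes the A-rich motif. For all genes, a gene counts if any of its listed starts has the motif.

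Across the complex, most of the upward difference fell between day 10 and day 12, and the second step was mixed. On day 12, 40 of 55 members stood above their day 10 value, 9 were lower and 6 were equal, with a median of 0.36. Over all genes, 25.5% were higher, 7980 of 19938 were equal and the median was 0.00, so the shares higher are not closely comparable. Members that reached a 2-fold higher value on day 12 relative to day 10 numbered 7, against 0.787% of all genes. They were Flg2, Sprr4, Lce1f, Lce6a, Lce1i, Lce1a2 and Lce1l. None was at least 2-fold lower, against 0.13% of all genes. From day 12 to day 14, no member was at least 2-fold higher, where 0.0552% of all genes were. The 4 members at least 2-fold lower were Lce3a, Lce3f, Lce3e and Sprr2f, against 0.196% of all genes. Over the whole interval, 9 members stood 2-fold or more above day 10 on day 14, against 1.25% of all genes. These were Flg2, Sprr4, Lce1f, Lce6a, Lce1a2, Lce1i, Lce1b, Lce1l and Lce1d. None was at least 2-fold lower, against 0.512% of all genes. The median of all members for day 14 against day 10 was 0.03, with the groups described next lying on opposite sides of 0. The 3 comparisons share arrays, so they are not independent of each other.

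**Figure D2:**
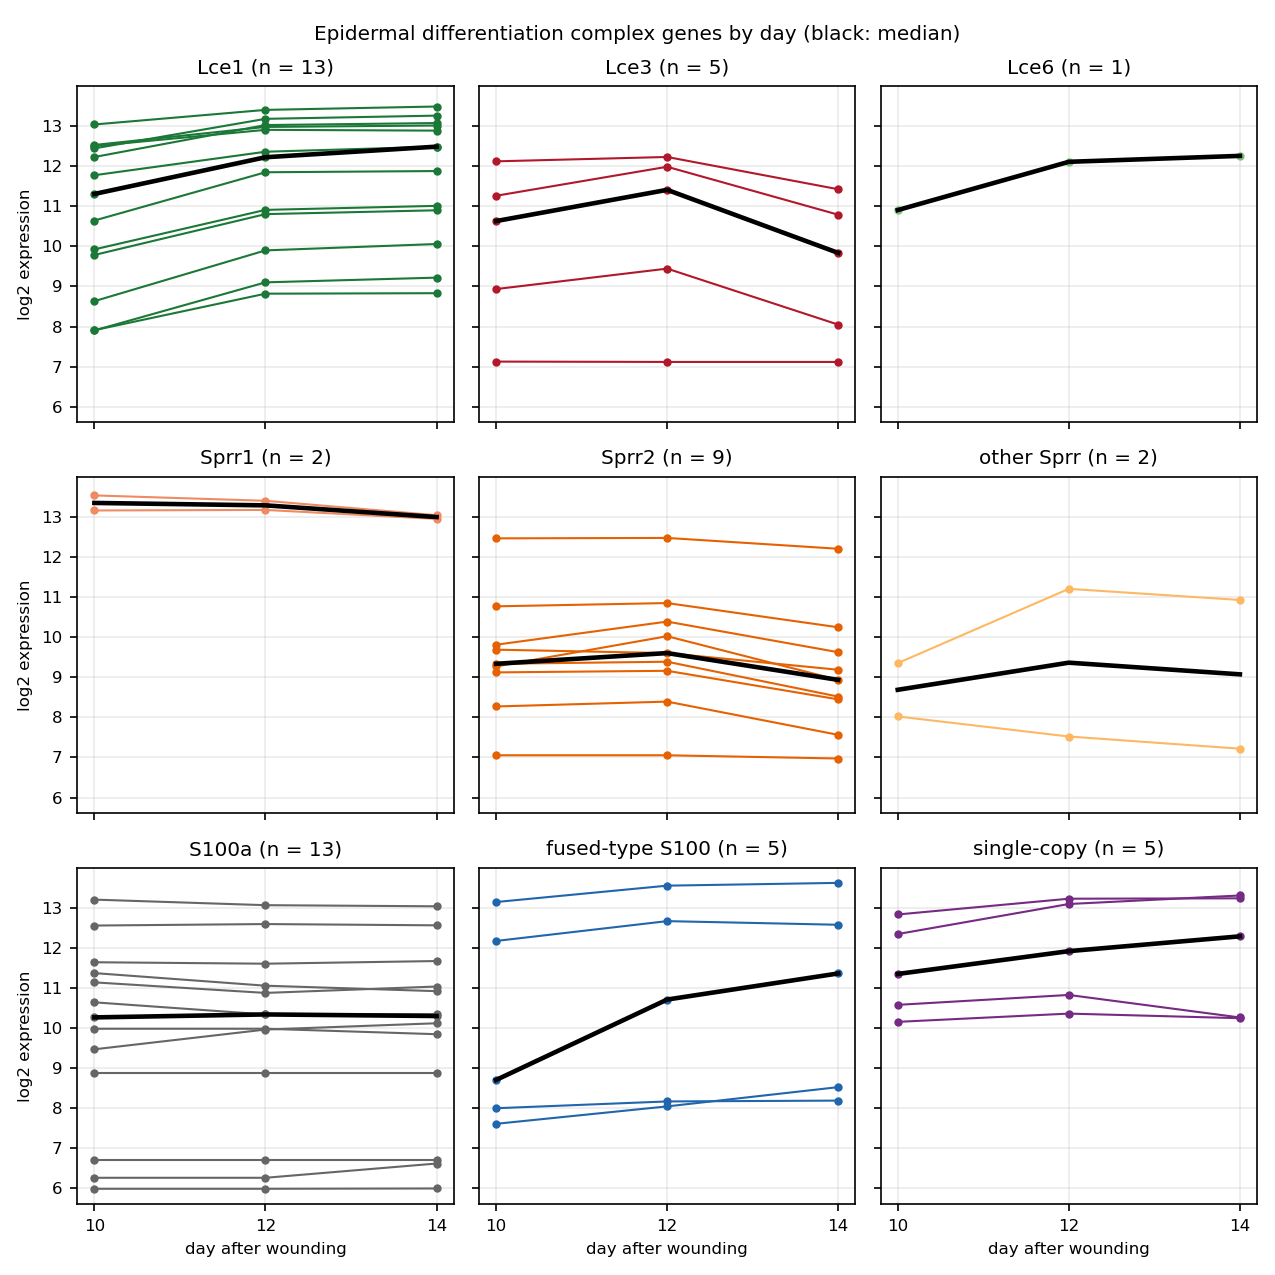
Log2 expression (vertical axis) by day after wounding (horizontal axis) for each of the 55 members, 1 panel per subfamily; thin lines with points are genes and the black line is the median. Lce1 lines go up to day 12 and then level off, all Sprr2 lines and 4 of the 5 Lce3 lines end below their day 12 values, and the S100a lines are mostly level.

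The Lce1 genes, whose products are laid down late in envelope assembly, were higher on both later days without exception. Each of the 13 was higher on day 12 than on day 10, by 0.36 to 1.27 with a median of 0.91, and all 13 were beyond the spread between probe sets, against 8.91% of all genes. From day 12 to day 14 the median was 0.08, and only Lce1b, at 0.27, and Lce1f, at 0.16, lay beyond the spread, while Lce1a1 differed by −0.02. Lce1f had log2 values of 8.63, 9.90 and 10.06 on days 10, 12 and 14. It had the largest difference of the subfamily, 2.68-fold higher on day 14 than on day 10. Lce1a2 had 7.90, 9.10 and 9.22, a difference of 2.49-fold, and Lce1i had 10.64, 11.85 and 11.88, a difference of 2.35-fold. In both, nearly the whole difference was present by day 12. Lce1b, at 11.30, 12.22 and 12.49, was the member that continued furthest after day 12. Lce1a1 had the smallest difference of the subfamily, with 12.50, 12.90 and 12.88. The remaining members, Lce1c, Lce1d, Lce1e, Lce1g, Lce1h, Lce1j, Lce1k and Lce1l, differed by 0.45 to 1.11 between day 14 and day 10. The size of the difference went with signal level. Between day 14 and day 10, the 6 Lce1 genes below 11 on day 10 had a median of 1.17. The 7 at or above 11 had a median of 0.71. Loss of response at bright signals was not tested, so the ranking within the subfamily is uncertain.

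Lce6a, a lone relative lying next to Lce1 on the chromosome, followed the same course, with 10.90, 12.11 and 12.25, a 2.55-fold difference between day 14 and day 10.

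The Lce3 genes behaved otherwise, peaking on day 12. Lce3a had 10.63, 11.41 and 9.83 on days 10, 12 and 14, so that it was 1.72-fold higher on day 12 than on day 10 and on day 14 it was 2.97-fold below day 12. Lce3f had 8.93, 9.44 and 8.05, with a 2.63-fold lower value on day 14 than on day 12. Lce3e had 11.26, 11.98 and 10.79, a 2.29-fold difference over the same step. These 3 genes were higher on day 12 and lower on day 14 by more than the spread between probe sets. Lce3c had 12.12, 12.23 and 11.42, so that its first step of 0.11 lay within the spread and its second, of −0.80, beyond it. Lce3b stayed at 7.13, 7.12 and 7.12, below the level filter on every day. A further probe set, listed for all 6 Lce3 symbols including Lce3d, had 12.31, 12.56 and 11.65. It was lower on day 14 than on day 12 by 1.88-fold, the direction seen in 4 of the 5 separate probe sets.

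Lce1 and Lce3 genes lie side by side, yet their differences between day 14 and day 10 did not overlap. They ran from 0.38 to 1.42 in Lce1 and from −0.89 to −0.01 in Lce3, where −0.01 belongs to Lce3b, below the level filter. Over all genes, 9.08% were higher and 13.2% lower beyond the spread. Members of a subfamily are near copies, so they are not independent observations. At the border, Lce1l had a difference of 1.11 and its neighbour Lce3a one of −0.79. The difference between the subfamilies was not tested, since each day has 1 array.

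Sprr2 genes, which encode short envelope proteins rich in proline, were close to level from day 10 to day 12 and lower on day 14. On day 12 their median difference was 0.05, and only Sprr2f, at 0.75, and Sprr2b, at 0.58, were beyond the spread. On day 14 all 9 were lower than on day 12, 8 of them beyond the spread, with a median of −0.71. Over all genes 9.92% were lower beyond the spread at that step. Sprr2f had 9.27, 10.02 and 8.93 and on day 14 was 2.13-fold below day 12. Sprr2b had 9.81, 10.39 and 9.62, a difference of 1.70-fold. Both had been higher on day 12 than on day 10, and the other members had not moved beyond the spread. Sprr2g, listed as a transcribed pseudogene, had 9.33, 9.39 and 8.52, and Sprr2j-ps, also a pseudogene, had 8.27, 8.39 and 7.56. They had the largest differences of the subfamily between day 14 and day 10, −0.82 and −0.71. Sprr2h had 9.12, 9.16 and 8.45, and Sprr2e had 10.77, 10.85 and 10.24. Sprr2i, at 9.69, 9.60 and 9.19, was lower at each step, although its first step was within the spread. Sprr2d changed least among those beyond the spread, with 12.46, 12.47 and 12.20. Sprr2k, at 7.05, 7.05 and 6.97, stayed low and within the spread.

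The Sprr2a copies, which could not be separated, did not share this course. The probe set listed for Sprr2a1, Sprr2a2, Sprr2a3 and Sprr2b had 13.64, 13.69 and 13.68, and the pair listed for Sprr2a1 and Sprr2a3 had identical values of 13.16, 13.33 and 13.29. Their differences between day 14 and day 12 were −0.01 and −0.03, while those of the 9 single-symbol Sprr2 genes ran from −1.09 to −0.08. Loss of response at signals this bright was not tested. Members of Lce1, Lce3 and Sprr2 are near copies, so hybridisation of a transcript to its relatives' probes cannot be separated from its own signal.

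The other Sprr genes differed among themselves. Sprr1a, a marker of keratinocytes under stress, had 13.53, 13.40 and 13.04, and was lower on day 14 than on day 10 by 1.41-fold. Sprr1b had 13.16, 13.17 and 12.95, and its difference of −0.21 between day 14 and day 10 was within the spread. Sprr3, best known from internal stratified epithelia, had 8.02, 7.52 and 7.22, a 1.75-fold lower value on day 14 than on day 10 from a signal below the filter. Sprr4 went the opposite way, with 9.35, 11.20 and 10.92. It was 3.61-fold higher on day 12 and 2.98-fold higher on day 14 than on day 10, the largest difference of any Sprr gene. Its neighbours on either side, Sprr1a and Ivl, had differences of −0.49 and 0.94.

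Loricrin and involucrin, the single-copy envelope proteins, were higher at both steps. Lor had 12.34, 13.09 and 13.30, a 1.95-fold difference between day 14 and day 10. Ivl had 11.34, 11.91 and 12.28, a 1.92-fold difference. In Ivl a first step of 0.57 was followed by 0.37, and in Lor one of 0.75 by 0.21. Crct1, a small cysteine-rich gene beside the Lce genes, had 12.83, 13.22 and 13.23. The peptidoglycan recognition genes Pglyrp3 and Pglyrp4 encode secreted antibacterial proteins and differed from these. Pglyrp3 had 10.57, 10.82 and 10.26, highest on day 12, with day 14 lying 1.48-fold below it. Pglyrp4 had 10.15, 10.36 and 10.24, with only its first step beyond the spread.

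Among the fused-type S100 genes, Flg2 stood apart from all other members. Flg2, which encodes a filaggrin-like protein of the upper epidermis, had 8.70, 10.71 and 11.36. It was 6.30-fold higher on day 14 than on day 10, and its second step of 0.65 was the largest upward step of any member between day 12 and day 14. Hrnr, the hornerin gene, had 13.14, 13.54 and 13.61, and Rptn, the repetin gene, had 12.17, 12.66 and 12.57. Both were higher on day 12 beyond the spread and level after it. Tchh, which encodes trichohyalin of the inner root sheath and of hard-worn epithelia, had 7.61, 8.04 and 8.52, with steps of 0.43 and 0.48. It passed the filter by its day 14 value only. Of 13 hair shaft and inner root sheath markers, 11 were higher on day 14 than on day 12 beyond the spread, against 8.32% of all genes. The median of the list was 0.58, and Krt71 and Krt25 were among the higher ones at 1.33 and 1.10. Most of the list stayed below the filter on every day, such as Krt28 at 5.48, 5.51 and 5.81. S100a3, a member of the complex, is also on the list. The part of hair cells in the Tchh value was not tested. Tchhl1, a trichohyalin-like gene, differed by 0.17 and 0.02 at the 2 steps, within the spread.

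The S100a genes, which flank the envelope genes on both sides, had medians of 0.00 in all 3 comparisons. Beyond the spread, 1 was higher and 3 were lower on day 12 against day 10, where 8.91% of all genes were higher and 11.2% lower. On day 14 against day 12, 3 were higher and 0 lower, against 8.32% and 9.92% of all genes. Over the whole interval 2 were higher and 2 lower, against 9.08% and 13.2%. S100a14, an epithelial member, had 9.47, 9.96 and 10.11, the largest difference of the family at 0.65. S100a6, found in proliferating and stromal cells, had 11.37, 11.05 and 10.92 and was lower by 1.37-fold on day 14 than on day 10. S100a3, a gene of the hair cuticle, had 6.26, 6.26 and 6.62, so its whole difference fell between day 12 and day 14, from a signal below the filter. S100a8 and S100a9 encode calprotectin, which is made in bulk by neutrophils and also by wound keratinocytes. S100a8 had 11.13, 10.87 and 11.03, lowest on day 12. S100a9 had 10.64, 10.33 and 10.30, and its difference between day 14 and day 10 was −0.34. The fibroblast and macrophage gene S100a4 had 9.98, 9.98 and 9.84.

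Values of S100a10, the annexin A2 partner, were 12.55, 12.59 and 12.56, within the spread throughout. S100a11, an envelope-linked member with 2 probe sets, averaged 13.20, 13.06 and 13.03, and its probe sets differed by −0.14 and −0.19 between day 14 and day 10. S100a1 and S100a16 stayed within 0.08, and S100a13 and S100a5 were equal on all 3 arrays. S100a2 had 5.99, 5.99 and 6.00. The neutrophil list gives context for the calprotectin genes. Its 13 measured markers had a median difference of 0.00 for day 12 against day 10 and of −0.11 for day 14 against day 12. At the second step, 6 of 13 were lower beyond the spread, and these were the markers that reached the level filter. With that filter, the median of the list was higher at the first step and lower at the second, both beyond the spread. Mmp8 had 7.96, 8.77 and 6.35, and Trem1 had 8.38, 9.12 and 6.98, both highest on day 12. Mmp9, with 12.07, 11.69 and 10.97, was lower at each step beyond the spread. At the first step its difference of −0.38 had the direction of those of S100a8, −0.26, and S100a9, −0.30. No other marker of the 13 was lower beyond the spread at that step, and 4 were higher. Lcn2 had 8.69, 9.58 and 8.92. Ly6g and Elane were low on every array, at 5.81 to 5.92 and 6.37. The part of neutrophils in the S100a8 and S100a9 values was not tested.

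**Figure D3:**
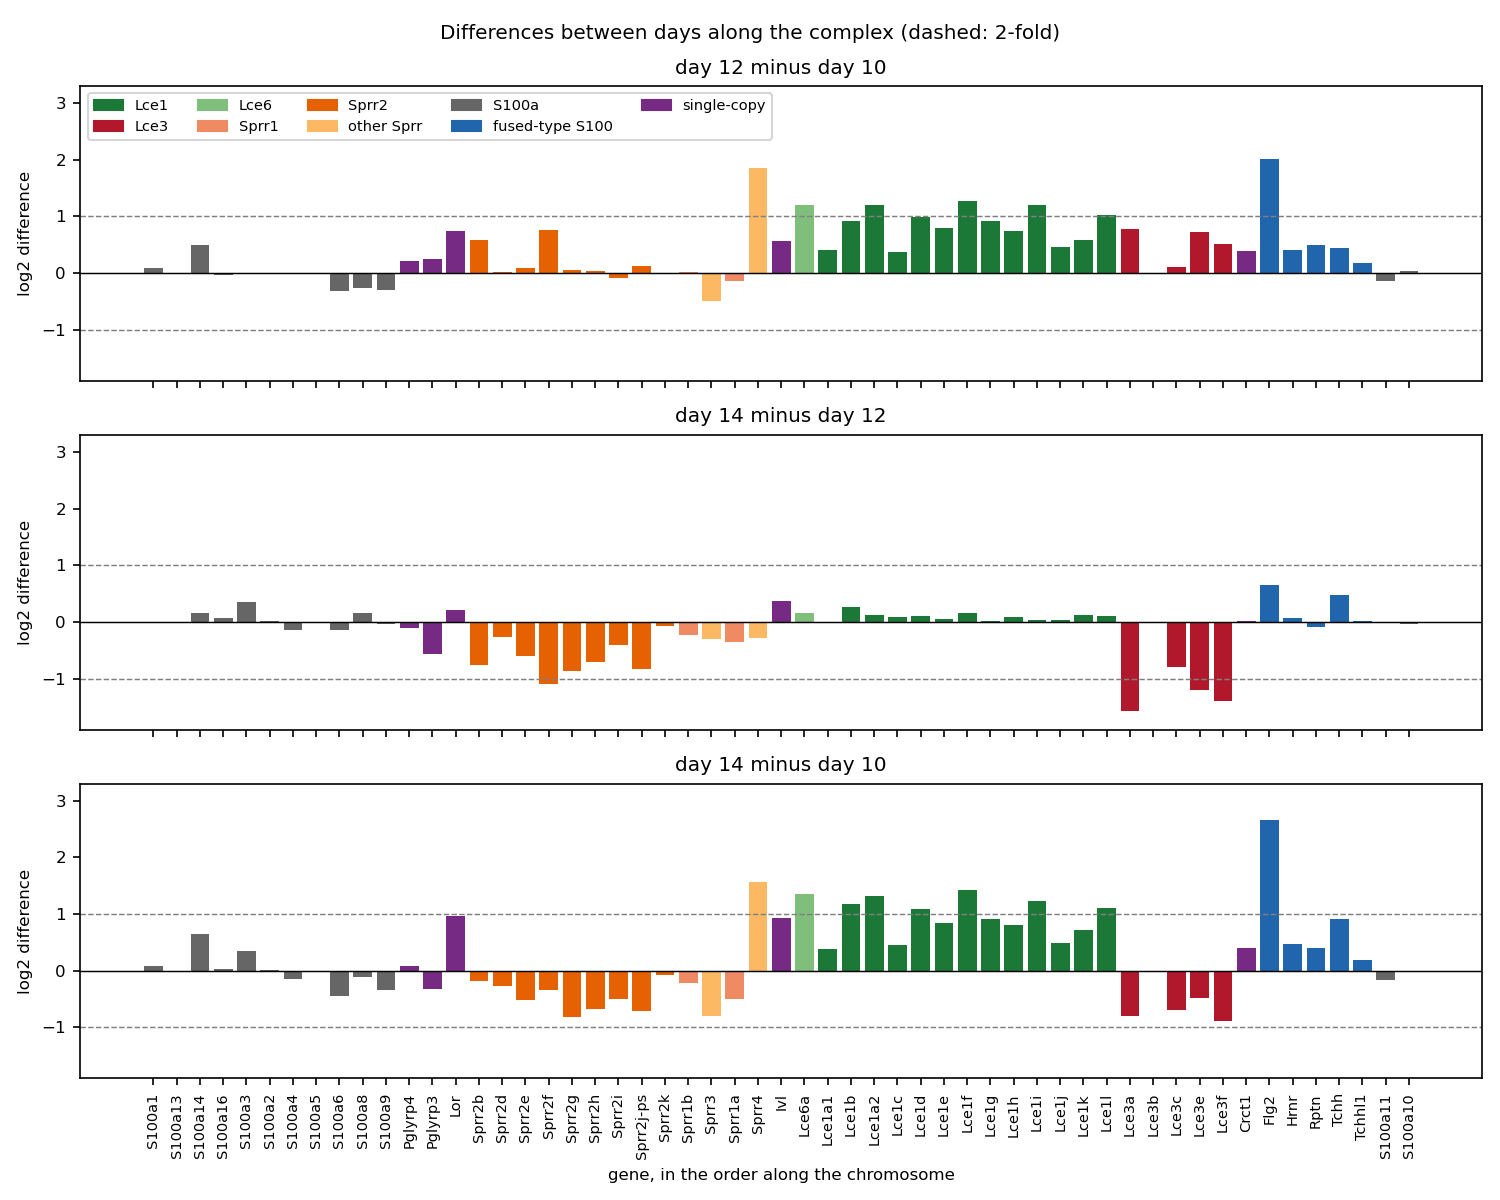
Log2 difference (vertical axis) for the 55 members in chromosomal order (horizontal axis), with day 12 minus day 10 on top, day 14 minus day 12 in the middle and day 14 minus day 10 at the bottom; colours are subfamilies and dashed lines mark 2-fold. In the bottom panel the Sprr2 and Lce3 blocks lie below 0 and the Lce1 block between them lies above 0.

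Read along the chromosome, long runs of neighbouring genes shared a sign, while other stretches were mixed. The S100a genes had 6 higher, 5 lower and 2 equal on day 14 against day 10, Pglyrp4 and Pglyrp3 had differences of 0.09 and −0.31, and Lor one of 0.96. All 9 Sprr2 genes, then Sprr1b, Sprr3 and Sprr1a, were lower on day 14 than on day 10. Sprr4, Ivl, Lce6a and the 13 Lce1 genes that follow were all higher, the 5 Lce3 genes were lower, and Crct1 and the 5 fused-type genes were higher. Not all were beyond the spread. Of the 9 Sprr2 genes 7 were, of the 2 Sprr1 genes 1, of the 5 Lce3 genes 4 and of the 5 fused-type genes 4. Over all genes, 34.9% were higher over this interval, 7102 of 19938 were lower and 5882 were equal. Beyond the spread, 9.08% were higher and 13.2% lower. Equal values at either step kept a gene from having its highest value on day 12. This held for 8 of 55 members and 10141 of 19938 genes, so the next shares are not closely comparable. In shape, 18 of 55 members had their highest value on day 12, or 32.7%, against 8.78% of all genes. Of these, 7 were beyond the spread at both steps, against 1.71% of all genes. They were Lce3a, Lce3e, Lce3f, Sprr2b, Sprr2f, Sprr4 and Pglyrp3. A single array supplies the day 12 value in all of them.

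Genes near the complex that the rule leaves out included members of both kinds. Of 12 such genes listed, 8 were measured. Kprp, a keratinocyte proline-rich gene, had 12.29, 12.95 and 13.01, and Crnn, the fused-type gene cornulin, had 7.62, 7.90 and 8.14. S100a7a, the mouse relative of psoriasin, had 8.92, 8.83 and 8.35, with a difference of −0.48 between day 14 and day 12. The S100-named genes elsewhere in the genome, S100b, S100g, S100z and S100pbp, stayed within the spread in all 3 comparisons.

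Envelope enzymes and other cornification genes outside the complex followed the Lce1 and loricrin side. Of 30 measured, 22 were higher on day 12 than on day 10 beyond the spread, against 8.91% of all genes. The median of the list was 0.38, and none of its genes lay below day 10 by more than the spread. From day 12 to day 14 the median was 0.05. At that step 3 were higher and 3 lower beyond the spread, against 8.32% and 9.92% of all genes. Over the whole interval 22 were higher and 1 lower beyond the spread, against 9.08% and 13.2%. Krt77, a keratin of differentiated layers, had 8.03, 10.39 and 10.44. Sbsn, the suprabasin gene, had 11.27, 12.24 and 12.35, and the lipoxygenase gene Aloxe3 had 10.09, 10.95 and 11.10. Calml3, a calmodulin-like gene of differentiating keratinocytes, had 10.96, 11.79 and 11.91. All 4 had most of their difference before day 12, as the Lce1 genes did.

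Of 29 measured transcription factors of epidermal differentiation, 16 were higher and 3 lower on day 12 than on day 10 beyond the spread. Over all genes these shares were 8.91% and 11.2%. The median of the factors on day 14 against day 10 was 0.20. Pou2f3, an octamer-binding POU factor of the suprabasal epidermis, had 8.71, 9.96 and 10.43, a log2 difference of 1.72 between day 14 and day 10. Gata3 had 9.30, 10.62 and 10.90, and the aryl hydrocarbon receptor gene Ahr had 9.53, 10.60 and 10.89. Grhl1, a grainyhead factor, had 9.41, 10.12 and 10.25. No relation between these factors and any member was tested.

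Other markers show what else differed between the pools. Of 11 general epithelial markers, 7 were higher on day 12 than on day 10 beyond the spread, with a median of 0.36. On day 14, 7 also lay above day 10 beyond the spread, with a median of 0.47. Over all genes, 8.91% and 9.08% were higher beyond the spread in these comparisons. Epcam, with 8.27, 9.49 and 9.82, led that list. The 8 basal keratinocyte markers were mixed, with 3 higher and 1 lower on day 14 against day 10 beyond the spread. Krt15, a keratin of basal cells and the follicle bulge, had 8.73, 10.02 and 10.67, and Col17a1, a hemidesmosome collagen gene, had 10.66, 11.10 and 11.31. Cdh3, the P-cadherin gene, was lower, with 10.49, 10.33 and 10.02. Krt5 had 13.23, 13.24 and 13.28, and Krt14 had 13.30, 13.32 and 13.31, bright signals whose response was not tested. The wound keratin genes Krt6a, Krt6b, Krt16 and Krt17 all stayed within the spread, their medians being −0.01, −0.06 and −0.09 in the 3 comparisons in the order used above. Their signals were bright, between 12.68 and 13.33, and loss of response there was not tested, so the part of activated keratinocytes in the Sprr2 and Lce3 values was not tested either.

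**Figure D4:**
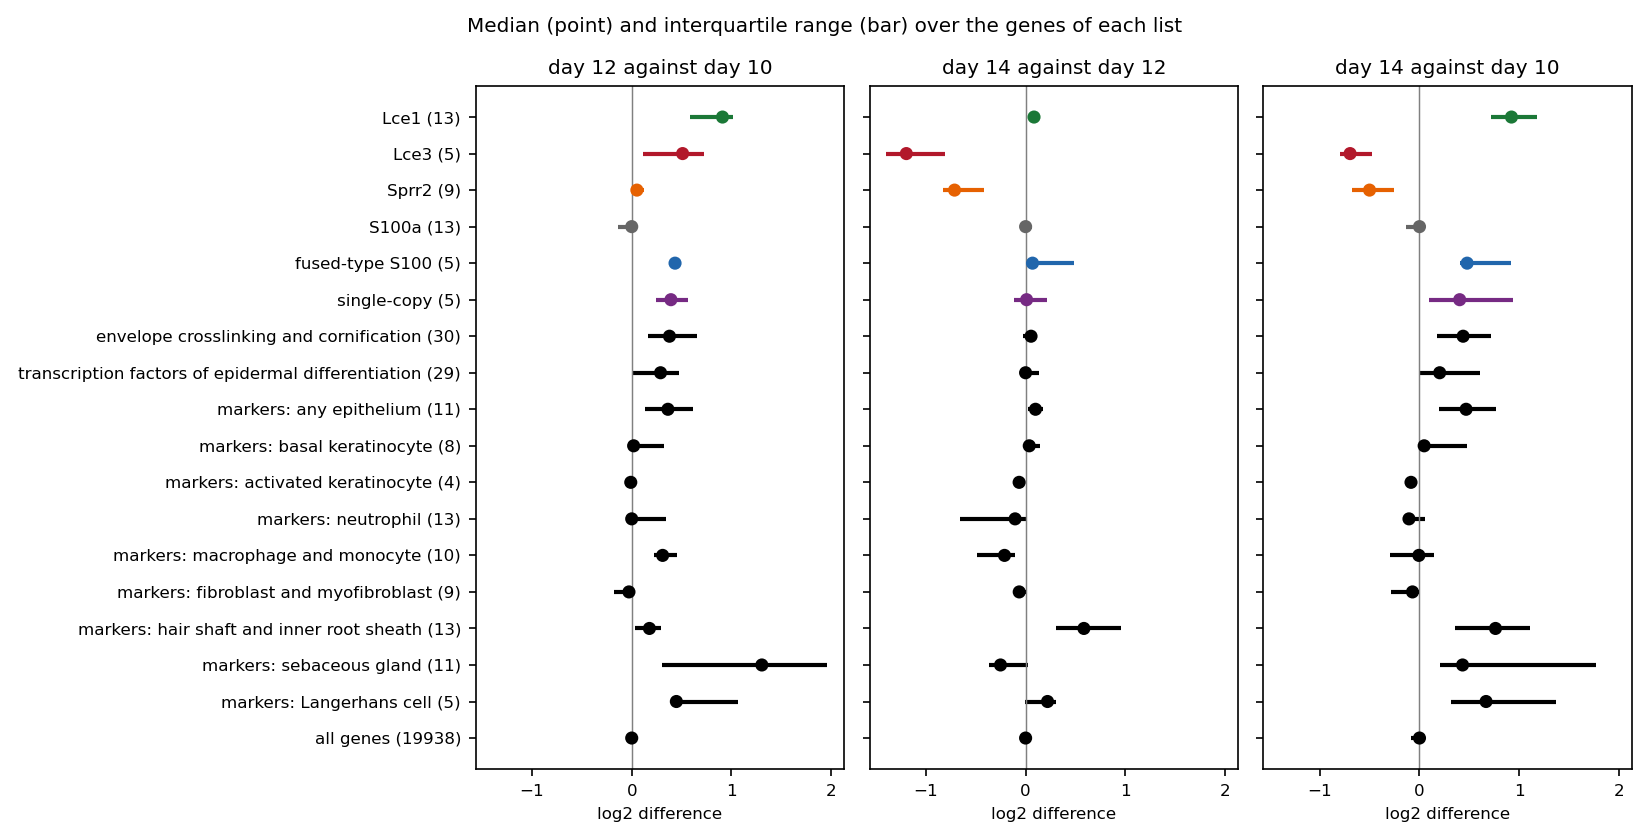
Log2 difference (horizontal axis) for 6 subfamilies of the complex, the comparison lists and all genes, in 3 panels of day 12 against day 10, day 14 against day 12 and day 14 against day 10; points are medians over genes, bars are interquartile ranges, and measured genes are in brackets. In the panel of day 14 against day 12, the Lce3 and Sprr2 medians of −1.20 and −0.71 lie to the left of all other lists shown, with no level filter. With the filter on the highest value, the neutrophil median at that step lay close to that of Sprr2.

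Of 11 sebaceous gland markers, 8 were above day 10 on day 12 beyond the spread, against 8.91% of all genes. The median of these markers was 1.30 at that step and −0.25 for day 14 against day 12. All 5 Langerhans cell markers, Epcam among them, were higher on day 12 beyond the spread. Macrophage and monocyte markers had a median of 0.31 on day 12 against day 10 and of −0.21 on day 14 against day 12. At that second step 7 of 10 were lower beyond the spread, against 9.92% of all genes. Fibroblast and myofibroblast markers had medians of −0.03 and −0.06 at these steps, but the contractile genes Acta2 and Tagln were lower at both beyond the spread. Acta2 had 13.01, 12.46 and 12.13. Tagln had 10.99, 10.19 and 9.85, a log2 difference of −1.14 between day 14 and day 10. The Y-linked gene Eif2s3y had 5.49, 9.59 and 8.38. Uty, also Y-linked, had 5.49 on day 10 and 7.84 on day 14, and was highest on day 12. Xist had 12.30, 12.05 and 12.28, lowest on day 12. The pools thus also differed in genes that depend on sex, which the labels do not give. Both Y-linked genes differed most between day 10 and day 12, the step with most of the complex's upward difference. With 1 pool per day, differences between animals cannot be told apart from differences between days. The part of follicle, gland, immune or stromal cells, or of animals, in the differences of the complex was not tested.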

How the data were processed

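Expression was measured in wound tissue of 3 days, with 1 one-colour array per day and 3 mice per pool. The authors deposited 1 log2 value per probe set and array for 35556 probe sets. The submitters' processing notes name RMA and Partek 6.6 with no role, and the log2 scale was inferred from the range of the values. No scanner files were used, so detection is unknown, and precision is limited by having 3 arrays. The platform annotation gave 1 symbol for 21789 probe sets, several for 1621 and no entry for 12146. Single-symbol probe sets were averaged per symbol with no level filter, and array medians over probe sets were 7.53, 7.55 and 7.53. Of these probe sets, 21698 matched the GRCm38.p6 gene table by Entrez identifier, with 0 symbols changed.

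Days were compared by log2 difference and 2-fold counts, without a test. In each subfamily the 2 members with the largest difference between day 14 and day 10 and the smallest were to be named. So were a fixed set of well-known genes and at most 4 genes per list by size. Krt5, Krt14, Ly6g, Elane, Eif2s3y, Uty and Xist were added after their values were seen. The remaining members are given for completeness. The members, lists and lead genes were chosen with earlier results of these data known. Counting steps were tested on simulated data. Promoters were aligned pairwise with Biopython 1.88; tables used pandas 2.3.3 and Python 3.11.15.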

Additional observations from a re-analysis of the deposited data

Results flagged for a closer look

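Probe sets that list several symbols of the complex were outside the gene values and carried strong signal. On day 14 the probe set listed for Sprr2a1, Sprr2a2, Sprr2a3 and Sprr2b stood at 13.68, that for Sprr2a1 and Sprr2a3 at 13.29, and that for all 6 Lce3 genes at 11.65. Against day 10 they differed by 0.04, 0.13 and −0.66 on day 14. The 2 probe sets of Sprr2a1 and Sprr2a3 held identical values on every array.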

How the results depend on the processing

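No paired analysis was possible because each day had 1 array, and leaving out a replicate was not possible for the same reason. Values were compared with the spread between probe sets. Of the member differences recomputed under 6 alternatives, 8 moved beyond the spread, all on adding shared probe sets (Lce3a, Lce3b, Lce3e, Lce3f and Sprr2b), and none reversed. Both level filters leave a member's value as it is, and the brightest probe set can alter S100a11 alone, so for members only centring, quantile normalization and shared probe sets bear on this. With a 1.5-fold threshold, members higher numbered 17, 1 and 17 in the first step, the second step and the whole interval, and members lower numbered 10 in the second step and 7 in the whole interval. All genes higher then numbered 464, 54 and 621, and lower 191, 142 and 594. With the filter on a mean in the top 25% of genes, 2 members were 2-fold lower at the second step, the median of members over the whole interval was 0.38, the Sprr2 median −0.26, and the Lce3 median at the first step was 0.72. All genes 2-fold higher numbered 55, 1 and 88 and lower 4, 11 and 31 in these 3 comparisons. Under that filter the sebaceous and Langerhans medians at the second step were 0.0474 and −0.0063, where they were −0.25 and 0.22 without a filter. Without the S100a genes, the median of members over the whole interval was 0.39. With shared probe sets added, the Lce3 medians were 0.32 at the first step and −0.98 at the second, the Sprr2 median at the second step was −0.40, and 18 of all genes were 2-fold higher there. With the filter on the highest value, 3 of all genes were. Under this filter the neutrophil median moved, to above the spread at the first step and below it at the second. At the second step it then lay close to the Sprr2 median. Fewer or other genes enter under these settings; further causes were not tested. Centring, quantile normalization and the brightest probe set changed no count of members at 2-fold. Counting only differences beyond the spread, an alternative chosen after seeing the data, left 7 of the 18 members that were highest on day 12. Background per probe set is unknown, so low signals such as those of Lce3b and Sprr2k limit what their small differences mean.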
